A study of Mus musculus with 6 samples.

Results

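The genes described here are those of the 7 solute carrier (SLC) families that carry amino acids and their close relatives across membranes. They were taken by symbol: every gene with a symbol of its own on the array that starts with Slc1a, Slc3a, Slc6a, Slc7a, Slc36a, Slc38a or Slc43a and goes on with a number. This gave 64 of 19938 genes, namely 7 of the Slc1 family, 2 of Slc3, 21 of Slc6, 16 of Slc7, 4 of Slc36, 11 of Slc38 and 3 of Slc43. Of these, 2 are named as opposite-strand transcripts and not as transporters (Slc6a19os and Slc7a6os), and the counts of changed genes below are the same without them.

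Total RNA of mouse NME cells and of their AG1478-resistant (AGR) descendants was hybridized to 6 arrays of the type Affymetrix Mouse Gene 1.0 ST, with 3 arrays a line. NME cells are NMuMG mammary gland epithelial cells transformed by overexpression of EGFR, and they are sensitive to AG1478, an inhibitor of the EGFR kinase. AGR cells are 1 colony that grew out of NME cells in 3D culture in 5% cultrex under 1 µM AG1478, was picked and expanded in 2D culture, and, per the methods, was kept without drug afterwards, so both lines overexpress EGFR and both were grown in DMEM with insulin and 10% FBS. As AGR is a single colony, its resistance cannot be told apart from other traits of that colony, and since the sources do not say whether arrays of a line came from separate cultures, the p-values reflect the spread of these arrays and nothing wider.

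Cells import amino acids for protein synthesis, energy and redox balance through carriers that differ in substrate and in driving force. Slc7 light chains of the heteromeric group reach the surface only when bound to a heavy chain, Slc3a1 or Slc3a2, and they exchange one amino acid for another. Slc1, Slc6 and Slc38 carriers use the sodium gradient, and Slc36 carriers use protons. Several of these genes are known targets of ATF4, the transcription factor of the amino acid response, and the supply they give is read by the kinase complex mTORC1 at the lysosome. In the mammary gland they feed the epithelium with the amino acids of milk protein.

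Each gene was represented by its brightest probe set, and its level is given as log2 intensity. As a probe set has its own brightness, levels were compared between lines and not between genes. The array medians lay between 190.4 and 200.8 on the linear scale, and log2 intensities over all probe sets correlated at 0.995 to 0.997 within a line and at 0.986 to 0.988 between lines. The files hold no detection calls, so the median of all probe sets (7.60) served as a guide to dim genes. AGR replicate 2 stood apart. Among 11702 genes with a mean above that median, it was over 0.25 above both other AGR arrays in 6.4% and over 0.25 below both in 7.92%. Within the NME line, replicate 2 also differed most, with 0.59% above and 4.38% below both other NME arrays. No remaining array passed 0.402% above and 1.5% below. Of 13 epithelial markers, 8 lay above the median, and 2 were lower in AGR cells, Krt19 by -1.04 and Cdh1 by -0.60 on the log2 scale. That is 15.4%, beside 24.2% of all genes changed in both directions together. The summed linear intensity of this list was 60907 to 61828 on the NME arrays and 49590 to 51810 on the AGR arrays. The fibroblast, endothelial and neural lists had 1, 0 and 0 changed genes of 9, 8 and 8, the immune list had 3 of 8 (Cd68 0.96, Csf1r 0.28, Cd14 -0.60) and the adipocyte list 2 of 6 (Cidec -1.28, Pparg 0.33). These shares were 11.1%, 0%, 0%, 37.5% and 33.3%, beside the same 24.2%. The array sums of these other lists overlapped between the lines except for the immune list (4170 to 4514 in NME cells, 3175 to 3726 in AGR cells) and the neural list (1454 to 1483 and 1486 to 1552), and their part in the results was not tested.

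A minority of the amino acid transporters differed between the lines, and the changes of largest fold were decreases in AGR cells. At a Benjamini-Hochberg adjusted p under 0.05 in limma, 3 of the 64 genes were higher in AGR cells (Slc6a8, Slc36a1 and Slc1a2) and 6 were lower (Slc7a7, Slc3a1, Slc6a9, Slc7a11, Slc38a9 and Slc38a2). These counts are 4.69% and 9.38% of the genes, beside 12.6% and 11.6% of all genes tested. Without AGR replicate 2, an array described below, they were 6.25% and 17.2%, beside 14% and 12.9% of all genes. Beside all genes of any brightness, the order for the lower genes thus depends on this array. These shares are not matched for brightness. In both directions together 14.1% passed, beside 24.2% of all genes. With each array centred on its median, 5 were higher (7.81%) and 4 were lower (6.25%), beside 13.5% and 9.61% of all genes. At the threshold of the study for differentially expressed genes, an adjusted p under 0.05 with a fold change (FC) above 2, 2 genes were lower (3.12%), Slc7a7 and Slc3a1, and 0 were higher, beside 1.5% of all genes lower and 1.5% higher.

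Most of the families lay in the dim range of the array. In 36 of the 64 genes the means of both lines were below 7.60, the median over all probe sets, and none of these passed the test, with log2 FCs of -0.19 to 0.16. Another 25 genes lay above it in both lines, and 7 of them (28%) passed, beside 37.2% of all genes of that brightness. Lower among them were Slc7a7, Slc6a9, Slc7a11, Slc38a9 and Slc38a2, and higher were Slc6a8 and Slc36a1. Of all genes of that brightness, 17.5% were lower and 19.7% higher. The remaining genes of the families, Slc1a2, Slc3a1 and Slc6a3, crossed the median. The median log2 FC was -0.06 over the 64 genes and -0.02 over all genes, and among the brighter genes it was -0.15 and -0.01. A negative log2 FC was seen in 50 of the 64 genes (78.1%) and in 56.2% of all genes. The AGR arrays all lay below the NME arrays in 18 genes (28.1%), beside 18.5% of all genes, and all above them in 6 (9.38%), beside 17.9%. The spread was small, with a median SD over 3 arrays of 0.06 in either line.

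**Figure D1:**
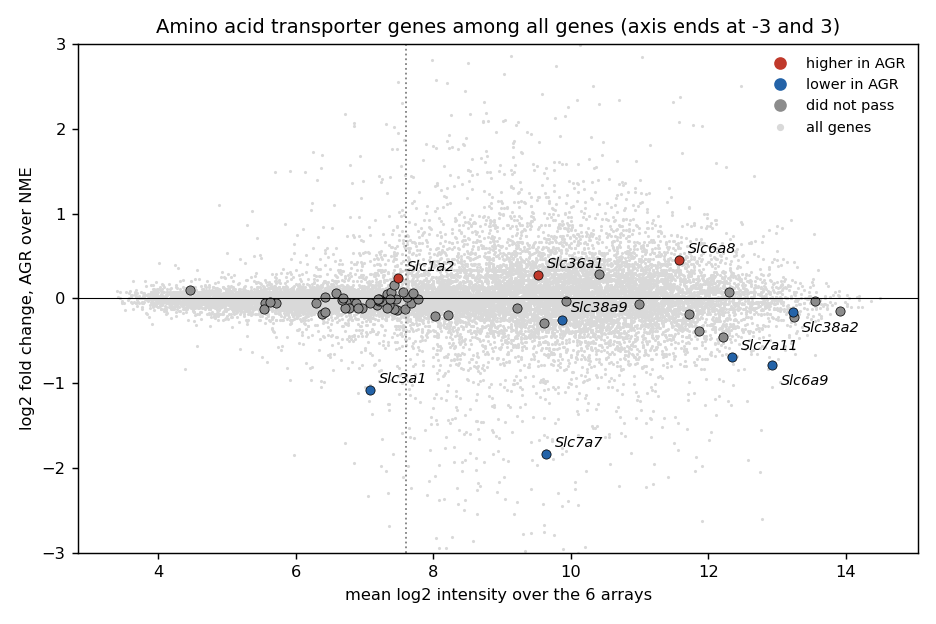
Log2 FC of AGR over NME cells (vertical axis, cropped at -3 and 3) against the mean log2 intensity over the 6 arrays (horizontal axis) for all genes (small grey points) and for the 64 SLC family genes (large points, coloured where limma's adjusted p was under 0.05). The dotted line is the median of all probe sets, 7.60. Slc7a7 and Slc3a1 are the transporter genes with a log2 FC below -1.

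**Figure D2:**
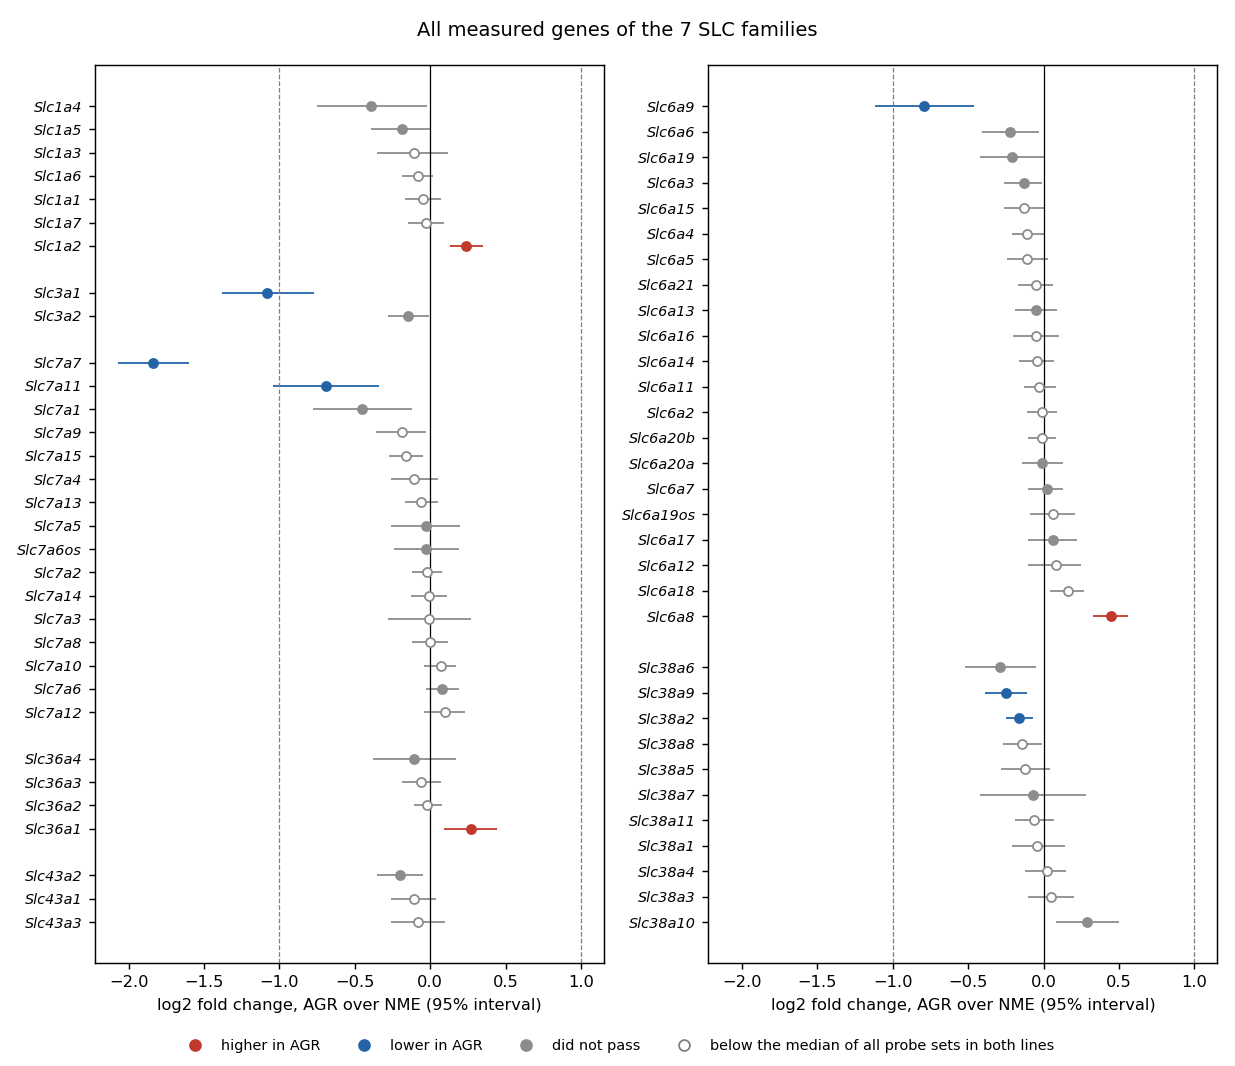
Log2 FC of AGR over NME cells with its 95% interval for each of the 64 genes, by family, from the limma fit. Open points mark genes dim in both lines (means below 7.60), and dashed lines mark a 2-fold change. Intervals of the 36 open points lie close to 0, while Slc7a7, Slc3a1, Slc6a9 and Slc7a11 stand to the left.

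Among the heteromeric exchangers, the light chain Slc7a7 fell most. Slc7a7 forms the y+L system with Slc3a2, which lets cationic amino acids such as arginine and lysine out of the cell in exchange for neutral ones. Its log2 intensities were 10.65, 10.39 and 10.62 on the NME arrays and 8.78, 8.55 and 8.83 on the AGR arrays. All AGR values lay more than 1.5 below the lowest NME value, and replicate 2 was the lowest array of either line. The means were 10.55 ± 0.14 and 8.72 ± 0.15 (SD, n = 3), a log2 FC of -1.84 with an SE of 0.10, or 3.57-fold lower (limma, adjusted p = 4.2e-05). Slc7a6, the closest relative of Slc7a7 and a light chain of the same system, had means of 12.26 ± 0.01 and 12.34 ± 0.05 (SD, n = 3). Its log2 FC of 0.08 did not pass (95% interval -0.03 to 0.19).

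In genome order, the gene next to Slc7a7 on one side is Oxa1l, whose annotated span overlaps it. Oxa1l had a log2 FC of -0.37 (limma, adjusted p = 0.00277). The 6 measured neighbours, 3 on each side, ranged from -0.37 to 0.12, and Lrp10 (-0.31, limma, adjusted p = 0.00856) was the other that passed. Whether probes of the overlapping genes share transcripts was not tested.

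RefSeq gives 5 start sites of Slc7a7 with windows in GRCm38.p6 that run from 250 bases before to 50 bases after the start, and some of these windows overlap. They were searched on both strands for 5 short motifs, the amino acid response core TGATGNAA, the antioxidant response core TGACNNNGC, the AP-1 motif TGANTCA, the E-box CACGTG and the TEAD motif GGAATG. A site of TGACNNNGC can overlap one of TGANTCA. Of all 32851 windows of this length, 3.97%, 12.4%, 7.81%, 7.15% and 14.7% held them, in this order. These letters are a description of the window and not of a bound factor. Windows of the farthest upstream start and of the farthest downstream start of Slc7a7 are shown because Slc7a7 had the largest change of the families, each 5′ to 3′ on the gene's strand with matches in capitals.
Slc7a7, upstream start, chr14:54417895-54418194, minus strand, TGATGNAA in capitals:
Slc7a7: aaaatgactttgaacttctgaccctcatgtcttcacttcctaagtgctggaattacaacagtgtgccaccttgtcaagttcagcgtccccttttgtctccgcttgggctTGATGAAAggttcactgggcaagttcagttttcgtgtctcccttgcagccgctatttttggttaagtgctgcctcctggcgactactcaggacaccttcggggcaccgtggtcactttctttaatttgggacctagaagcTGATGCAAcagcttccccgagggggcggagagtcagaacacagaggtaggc
Slc7a7, downstream start, chr14:54409423-54409722, minus strand, GGAATG in capitals:
Slc7a7: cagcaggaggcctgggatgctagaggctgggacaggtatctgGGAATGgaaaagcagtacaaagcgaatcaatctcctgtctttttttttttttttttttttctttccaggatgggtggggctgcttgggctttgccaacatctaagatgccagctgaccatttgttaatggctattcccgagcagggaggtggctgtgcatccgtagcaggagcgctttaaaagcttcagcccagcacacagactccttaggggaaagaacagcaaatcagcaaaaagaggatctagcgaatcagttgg
The first window held TGATGNAA at -141 and at -1 from the start, and the site at -1 lies also at -243 of the window of a neighbouring start. The second window held GGAATG at -208. No match of TGACNNNGC, TGANTCA or CACGTG was found in the 5 windows.

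The heavy chain Slc3a1, which pairs with the light chain Slc7a9 to take up cystine and dibasic amino acids in kidney and intestine, was the other gene past a 2-fold change. It read 7.66, 7.43 and 7.74 on the NME arrays and 6.77, 6.52 and 6.32 on the AGR arrays. The lines did not overlap, but the NME values straddled the median of all probe sets and the AGR values lay below it. The log2 FC was -1.08 with an SE of 0.13, or 2.11-fold lower (limma, adjusted p = 0.0013), between means of 7.61 ± 0.16 and 6.54 ± 0.23 (SD, n = 3). Without AGR replicate 3 the log2 FC was -0.97, short of a 2-fold change (limma, adjusted p = 0.00724). Its partner Slc7a9 was dim in both lines, at -0.19 on the log2 scale (95% interval -0.36 to -0.03), and did not pass. Prepl, whose span overlaps Slc3a1, was also lower, by -0.61 (limma, adjusted p = 9.2e-04), and none of the other 4 measured neighbours passed.

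A list of 9 markers of kidney tubule, intestine and liver was set up for Slc3a1, Slc7a9, Slc6a19 and Slc6a18, whose main sites are such organs. Of these transporters only Slc3a1 passed in the main fit. Slc7a9 had a log2 FC of -0.19, Slc6a19 of -0.21 and Slc6a18 of 0.16. The list had 5 genes lower in AGR cells (55.6%) and 0 higher, beside 11.6% and 12.6% of all genes, and 4 did not pass. The lower count was 4 with centring, quantile normalization, the offset, the replicate block and the two-sided test of the methods. It was also 4 without any single array except NME replicate 1. The filter at the median of all probe sets left 5 genes of the list, 3 of them lower. Its summed linear intensities were 16869 to 19505 on the NME arrays and 2361 to 2493 on the AGR arrays. The serum proteins Alb (-6.36) and Ttr (-5.12) made up most of the sum, and the microvillus protein Vil1 fell by 1.28 on the log2 scale. The proximal tubule markers Slc34a1, Lrp2 and Cubn had log2 FCs of -0.03, 0.01 and 0.15 and did not pass. The part of these genes in the result was not tested. The single window of Slc3a1 is shown as the second gene past a 2-fold change, with its match of TGANTCA, at -140, in capitals (GRCm38.p6, chr17:85028097-85028396, plus strand).
Slc3a1: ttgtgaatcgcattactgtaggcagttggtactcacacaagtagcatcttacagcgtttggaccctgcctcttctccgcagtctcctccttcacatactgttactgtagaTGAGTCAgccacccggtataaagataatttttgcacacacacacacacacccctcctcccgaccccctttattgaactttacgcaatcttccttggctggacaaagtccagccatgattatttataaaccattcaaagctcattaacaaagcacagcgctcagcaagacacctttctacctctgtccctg

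Slc3a2, the heavy chain of Slc7a5, Slc7a6, Slc7a7 and Slc7a11, had 13.98, 14.00 and 13.99 on the NME arrays and 13.75, 13.94 and 13.85 on the AGR arrays. The lines did not overlap, yet the log2 FC of -0.15 did not pass the test (95% interval -0.28 to -0.01, limma, adjusted p = 0.122). Slc7a5, the main carrier of leucine and other large neutral amino acids, also did not pass, at -0.03 (95% interval -0.26 to 0.20), and its AGR arrays (13.38, 13.76 and 13.48) lay on both sides of the NME arrays (13.55 to 13.60). Slc43a2, a facilitated carrier of large neutral amino acids, had -0.20 (95% interval -0.35 to -0.05, limma, adjusted p = 0.0692), and Slc43a1 and Slc43a3 were dim at -0.11 and -0.08. With only genes above the median of all probe sets, Slc43a2 passed (limma, adjusted p = 0.0489).

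Slc7a11, the cystine and glutamate exchanger that brings in cystine for glutathione, was lower in AGR cells. It read 12.67, 12.77 and 12.65 on the NME arrays and 11.72, 12.33 and 11.96 on the AGR arrays. All AGR arrays were lower, and replicate 2 was the nearest to the NME arrays. The log2 FC was -0.69 with an SE of 0.15, or 1.61-fold lower (limma, adjusted p = 0.0142). The call was lost without AGR replicate 3 or without any single NME array (limma, adjusted p of 0.0511 to 0.0703) and with the two-sided test named in the study's methods. The neighbours of Slc7a11 went both ways, with Pcdh18 (1.63) and Noct (0.57) higher and Elf2 (-0.24) and Mgarp (-0.16) lower. In its window lay TGATGNAA on both strands, at -66 and at -47 from the start. The 27 bases that span both are shown for this pair of sites, on the minus strand of chr3:50443653-50443679 in GRCm38.p6, and this stretch was chosen after the matches were seen.
Slc7a11: TGATGCAAacctggagaatTTGCATCA
Slc7a7 and Slc7a11 were the only genes among the 8 changed genes with a window (Slc6a8 had none) in which TGATGNAA was found, with 4 distinct sites between them. Over these 8 genes, with 14 windows in all, TGATGNAA was in 3 windows, TGACNNNGC in 4, TGANTCA in 1, CACGTG in 1 and GGAATG in 5.

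Of the cationic carriers of the Slc7 family, Slc7a1, the main arginine importer of most cells, read 12.34, 12.58 and 12.42 on the NME arrays and 11.79, 12.30 and 11.90 on the AGR arrays. The lines did not overlap and AGR replicate 2 was again the highest of its line, and the log2 FC of -0.45 did not pass (95% interval -0.78 to -0.12, limma, adjusted p = 0.0594). It passed in 6 alternatives (limma, adjusted p of 0.00439 to 0.0489). These were quantile normalization, both filters on dim genes, eBayes with its trend and robust options, the replicate block and the fit without AGR replicate 2. Slc7a2 and Slc7a3, its relatives, were dim at -0.02 and -0.01, as were Slc7a4 (-0.11) and Slc7a14 (-0.01). The other light chains were dim too, with Slc7a8 at -0.00, Slc7a10 at 0.07, Slc7a12 at 0.10, Slc7a13 at -0.06 and Slc7a15 at -0.16 (limma, adjusted p = 0.0527). With only genes above the 25th percentile of all probe sets, Slc7a15 passed (limma, adjusted p = 0.0488). Slc7a6os, a transcript named after the strand opposite to Slc7a6, was at -0.03.

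**Figure D3:**
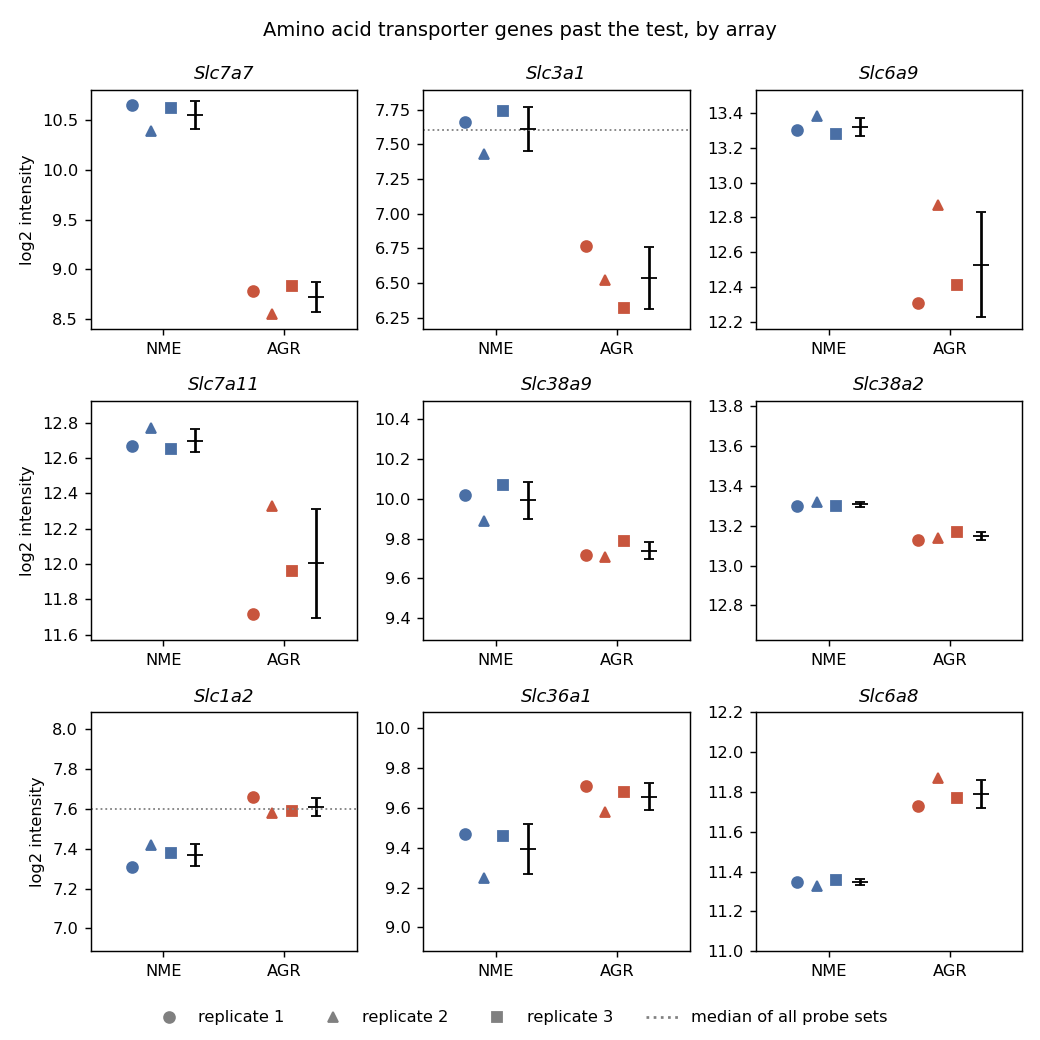
Log2 intensity on each array (symbols, by replicate number) for the 9 genes with an adjusted p under 0.05 in limma, with the mean and SD of each line beside the points. Each panel has its own vertical axis, which does not start at 0, and the dotted line is the median of all probe sets. In none of the 9 panels do the lines overlap, and AGR replicate 2 is the highest AGR array for Slc6a9, Slc7a11 and Slc6a8.

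The Slc6 family carries glycine, taurine, creatine, proline and neurotransmitters with sodium and chloride, and it had 1 higher and 1 lower gene of 21. Slc6a9, a glycine transporter, read 13.30, 13.38 and 13.28 on the NME arrays and 12.31, 12.87 and 12.41 on the AGR arrays. All AGR arrays were lower, replicate 2 by the least. The log2 FC was -0.79 with an SE of 0.14, or 1.73-fold lower (limma, adjusted p = 0.00677), and it passed in all settings but the two-sided test of the methods. The 4 measured neighbours of Slc6a9 had -0.09 to 0.17 and none passed.

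Slc6a8, the creatine transporter, was the transporter with the largest increase that passed. It read 11.35, 11.33 and 11.36 on the NME arrays and 11.73, 11.87 and 11.77 on the AGR arrays. The lines were separated by more than the range of either. The log2 FC was 0.45 with an SE of 0.05, or 1.36-fold higher (limma, adjusted p = 9.4e-04), and it passed in all 15 other settings. Its 5 measured neighbours had -0.16 to 0.02 and none passed.

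Slc6a6, the taurine transporter, had -0.22 and did not pass (95% interval -0.41 to -0.03, limma, adjusted p = 0.105). With the replicate block it passed (limma, adjusted p = 0.044). Slc6a19, a carrier of neutral amino acids in intestine and kidney, had -0.21 (95% interval -0.42 to -0.00) and passed without NME replicate 2 (-0.32, limma, adjusted p = 0.00597). The brighter genes left in this family lay just above the median of all probe sets and did not pass, namely Slc6a7 (0.02), Slc6a13 (-0.05), Slc6a17 (0.06) and Slc6a20a (-0.01), and Slc6a3, the dopamine transporter, crossed the median at -0.13. The 12 dim genes were the transporters of noradrenaline (Slc6a2, -0.01), serotonin (Slc6a4, -0.11), glycine in neurons (Slc6a5, -0.11), GABA and betaine (Slc6a11, -0.03, and Slc6a12, 0.08), together with Slc6a14 (-0.04), Slc6a15 (-0.13), Slc6a16 (-0.05), Slc6a18 (0.16), Slc6a20b (-0.01), Slc6a21 (-0.05) and the opposite-strand transcript Slc6a19os (0.06). Slc6a18 was just outside the threshold (limma, adjusted p = 0.0557). It passed as higher in AGR cells with centring on the median (limma, adjusted p = 0.028) and with quantile normalization (limma, adjusted p = 0.018). Slc6a20a and Slc6a20b are close copies, and probes could read both.

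In the Slc1 family the carriers of neutral amino acids were bright and the glutamate carriers were dim. Slc1a5, a glutamine carrier, had -0.19 (95% interval -0.39 to 0.00, limma, adjusted p = 0.155), and its relative Slc1a4, which carries alanine, serine and cysteine, had -0.39 (95% interval -0.75 to -0.02, limma, adjusted p = 0.126). With the replicate block Slc1a5 passed (limma, adjusted p = 0.0476). Slc1a4 read 12.04, 12.09 and 12.03 on the NME arrays and 11.40, 12.04 and 11.57 on the AGR arrays, so that AGR replicate 2 was level with the NME arrays and the other AGR arrays were below. Among the glutamate carriers, Slc1a2, the main one of astrocytes, was higher in AGR cells by 0.24 with an SE of 0.05 (limma, adjusted p = 0.0112), from a mean of 7.37 ± 0.05 to 7.61 ± 0.04 (SD, n = 3), which left it at the level of the median of all probe sets. Slc1a1, Slc1a3, Slc1a6 and Slc1a7 were below the median in both lines, with -0.11 to -0.03.

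The Slc38 family, sodium-coupled carriers of small neutral amino acids and glutamine, had 2 lower genes of 11. Slc38a2, a carrier induced by amino acid shortage, had 13.31 ± 0.01 in NME cells and 13.15 ± 0.02 in AGR cells (SD, n = 3), a log2 FC of -0.16 (limma, adjusted p = 0.024). Slc38a9, which senses arginine at the lysosome for mTORC1, had 9.99 ± 0.09 and 9.74 ± 0.04 (SD, n = 3), a log2 FC of -0.25 (limma, adjusted p = 0.0199), and its dimmer probe set gave -0.08. Both calls were lost in several settings. Slc38a2 had an adjusted p of 0.0521 to 0.0689 in limma without AGR replicate 1 or without any single NME array, and one of 0.072 to 0.0916 with centring on the median, quantile normalization or the replicate block. Slc38a9 had an adjusted p of 0.0654 to 0.0779 in limma without AGR replicate 1, NME replicate 1 or NME replicate 3, and it lost its call also with centring (0.0542) and with the two-sided test of the methods. All measured genes on one side of Slc38a9 were higher, Plpp1 by 0.89, Mtrex by 0.36 and Dhx29 by 0.23, and those on the other side did not pass.

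Of the other bright Slc38 genes, Slc38a10 had 0.29 (95% interval 0.08 to 0.50, limma, adjusted p = 0.0586) and Slc38a6 -0.29 (95% interval -0.52 to -0.05, limma, adjusted p = 0.0855), with no overlap of the lines in either. Slc38a10 passed in 7 alternatives (adjusted p of 0.0153 to 0.0494), namely both scalings, both filters on dim genes, the replicate block and the fits without AGR replicate 2 or NME replicate 3, and Slc38a6 in 2, quantile normalization and the block. Slc38a7, a glutamine carrier of the lysosome, had -0.07 (95% interval -0.42 to 0.28), with AGR arrays at 10.69, 11.30 and 10.87 around NME arrays at 11.01 to 11.06. Slc38a1, which carries glutamine in many tissues, was dim in both lines at -0.04, and Slc38a3, Slc38a4, Slc38a5, Slc38a8 and Slc38a11 were dim with -0.14 to 0.05.

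The Slc36 family exports small amino acids from lysosomes or takes them up with protons. Slc36a1, which acts on lysosomes and at the surface, rose from 9.39 ± 0.12 to 9.66 ± 0.07 (SD, n = 3), a log2 FC of 0.27 (limma, adjusted p = 0.0381), with all AGR arrays (9.58 to 9.71) above the NME arrays (9.25 to 9.47). This call was lost without AGR replicate 1 or 3 or without any single NME array, with an adjusted p of 0.0636 to 0.127 in limma, and with the two-sided test of the methods (adjusted p = 0.119). Slc36a4 had -0.11 (95% interval -0.38 to 0.17), and Slc36a2 and Slc36a3, which lie beside Slc36a1, were dim at -0.02 and -0.06.

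AGR replicate 2 differed from the other AGR arrays mainly upward among the transporters. Of the 25 brighter genes, 7 (Slc1a4, Slc38a7, Slc6a9, Slc7a1, Slc7a11, Slc7a5 and Slc7a6os) were over 0.25 higher on it than on both other AGR arrays and 0 were over 0.25 lower, while over all genes of that brightness the shares were 6.4% and 7.92%. With no threshold on the difference, replicate 2 was above both other AGR arrays in 14 of the 25 genes and below both in 7. The same count over all genes is not given here. Among these 25 genes the median SD was 0.10 in AGR cells and 0.07 in NME cells. Without this array 4 transporter genes were higher (6.25%) and 11 lower (17.2%) in AGR cells, beside 14% and 12.9% of all genes. With all arrays the lower share was below that of all genes. Neither comparison is matched for brightness. The genes gained were Slc1a4 (-0.57, limma, adjusted p = 0.0018), Slc7a1 (-0.60, limma, adjusted p = 0.00439), Slc1a5 (-0.27), Slc3a2 (-0.19), Slc38a7 (-0.25) and Slc38a10 (0.35). No source says what sets this array apart.

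**Figure D4:**
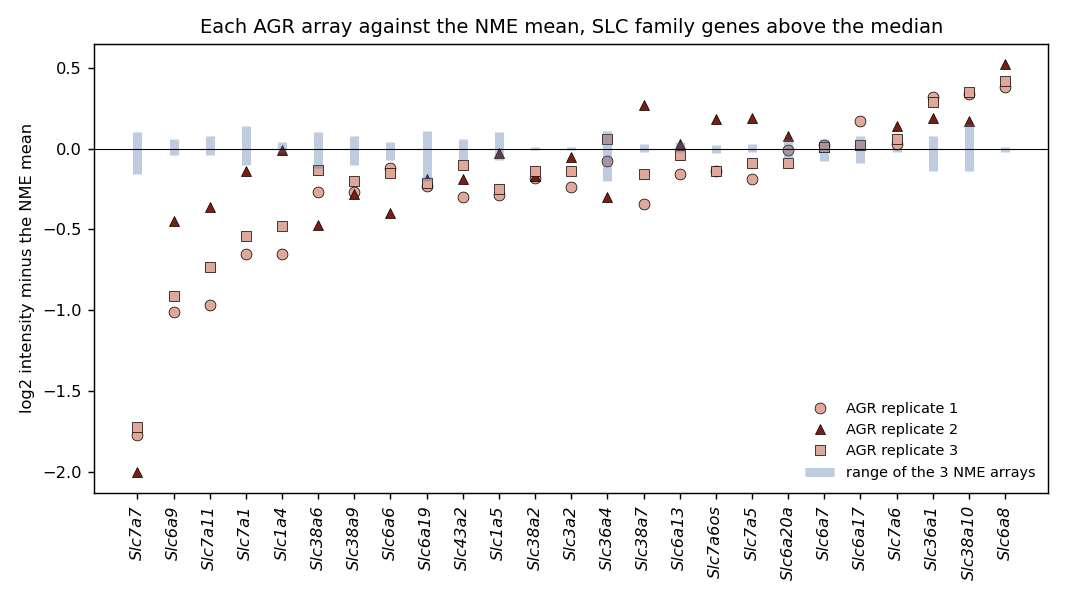
Log2 intensity of each AGR array minus the NME mean (vertical axis) for the 25 SLC family genes with a mean above the median of all probe sets, ordered by log2 FC. Symbols are the AGR replicates, and bars give the range of the 3 NME arrays. Replicate 2 (dark triangles) lies above both other AGR arrays by over 0.25 for Slc6a9, Slc7a11, Slc7a1, Slc1a4, Slc38a7, Slc7a6os and Slc7a5.

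The genes that work with these carriers were read from 10 lists in the same fit, and each is described by its count and median. Most of their genes lie above the median of the array, where 19.7% of all genes were higher and 17.5% lower. In the list of the amino acid response and known ATF4 targets, 11 of 27 genes (40.7%) were lower in AGR cells and 0 were higher, with a median log2 FC of -0.29. All 27 lie above the median of the array, where 37.2% of genes passed in both directions together. The largest were Ddit3 (-1.15), a transcription factor of the stress response, Ppp1r15a (-0.94), which restores translation, and the transcription factor Atf5 (-0.75). Their AGR arrays varied, with SDs of 0.59, 0.55 and 0.47 and replicate 2 nearest to NME cells (limma, adjusted p = 0.0201, 0.0338 and 0.0472). The lowest adjusted p in limma belonged to Ddit4 (-0.71, 2.9e-04), Chac1 (-0.45, 7.8e-04) and Trib3 (-0.72, 0.00226). Atf4 itself had -0.12 (limma, adjusted p = 0.131) and Asns, which makes asparagine, -0.18 (limma, adjusted p = 0.131). The summed intensity was 117057 to 120788 on the NME arrays and 85110, 114564 and 92452 on AGR replicates 1, 2 and 3, so that replicate 2 was again the nearest to NME cells. Without AGR replicate 2, 20 of the genes (74.1%) were lower, beside 19.7% of all genes of that brightness, and without any other single array 3 to 6 were. The two-sided test of the methods called 4.

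The list of cystine use and glutathione synthesis, the pathway that Slc7a11 feeds, had 6 of 17 genes lower and 0 higher, with a median of -0.17 that was -0.10 without AGR replicate 3 or NME replicate 2. Gss and Gclc, which are enzymes of glutathione synthesis, had -0.84 and -0.65, and Chac1, which breaks glutathione down, had -0.45. The regulatory subunit Gclm had 0.12 and did not pass. The summed intensity was 42253 to 43803 in NME cells and 35610 to 38204 in AGR cells, here with AGR replicate 2 the lowest.

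Glycine and one-carbon metabolism, which Slc6a9 supplies, had 4 of 14 genes higher and 1 lower, with a median of 0.03 that was -0.06 without AGR replicate 2. Gldc, which splits glycine in mitochondria, was higher by 1.35, the methionine synthase Mtr by 0.65 and Mthfd1 by 0.57, while Shmt2, which makes glycine from serine, had -0.31 and lost its call without any single array except AGR replicate 2. Arginine and polyamine metabolism had 4 of 18 genes higher and 0 lower, with a median of 0.01. The higher genes included the spermine oxidase Smox (0.92), Odc1 (0.48), the rate-limiting enzyme of polyamine synthesis, and its antizyme Oaz2 (0.32), and the count fell to 1 without NME replicate 1 or NME replicate 3 and to 2 without AGR replicate 1 or NME replicate 2.

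Glutamine, glutamate and asparagine metabolism went both ways, with 4 of 20 genes higher, 6 lower and a median of -0.09. The higher genes were Abat (2.86), which degrades GABA, Cad (0.93), which starts pyrimidine synthesis from glutamine, Oat (0.92) and Got2 (0.16). The lower genes were Gfpt1 (-0.77), Gpt2 (-0.68), Glud1 (-0.67), Got1 (-0.50), Gpt (-0.49) and Glul (-0.28), and 3 passed without AGR replicate 3, NME replicate 1 or NME replicate 3. In the catabolism of branched-chain amino acids 7 of 19 genes were lower and 3 higher, with a median of -0.21 that was -0.12 without AGR replicate 2, -0.14 without AGR replicate 1 and -0.09 with the mean of all probe sets. Dbt (-0.83), a subunit of the branched-chain dehydrogenase, and its phosphatase Ppm1k (-0.77) were lower, and the transaminase Bcat1 (0.65), the kinase Bckdk (0.30) and Bckdhb (0.20) were higher. The higher calls fell to 1 without any single NME array and to 0 without AGR replicate 3, and the lower calls fell to 4 without NME replicate 1 or NME replicate 3.

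The list of amino acid sensing and mTORC1 control had 3 of 38 genes higher and 5 lower, with a median of -0.02 that was -0.07 without AGR replicate 2. Rragb, a Rag GTPase that recruits mTORC1 to the lysosome, was higher by 0.90, Castor1 by 0.28 and Mtor by 0.15, while Bmt2 had -0.48 and Lamtor4 -0.38. Leaving out 1 array gave 1 to 3 higher genes and 2 to 9 lower ones, with the 9 without AGR replicate 2. Among partners and regulators of the carriers 3 of 20 genes were higher and 6 lower, with a median of -0.03. The kinase Sgk1 (0.94), Itgb1 (0.77) and Epas1 (0.25) were higher, and the ubiquitin ligase Nedd4l (-0.84) was the lowest. The antioxidant transcription factor Nfe2l2 had -0.54 and is named here after its value was seen.

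Other carriers of amino acids and peptides had 1 of 25 genes higher and 1 lower, with a median of -0.05. Slc16a10, a facilitated carrier of aromatic amino acids, had 11.06 ± 0.02 in NME cells and 9.55 ± 0.08 in AGR cells (SD, n = 3), or 2.85-fold lower (limma, adjusted p = 7.0e-06), and the mitochondrial carrier Sfxn2 was higher by 0.39. Handling of biogenic amines and creatine, which relates to substrates of Slc6 carriers, had 1 of 18 genes higher and 3 lower, with a median of 0.00. Ddc, which makes dopamine and serotonin, had -2.26, the vesicular amine carrier Slc18a1 -1.55 and the mitochondrial creatine kinase Ckmt1 -1.13, and Maoa was higher by 0.68.

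**Figure D5:**
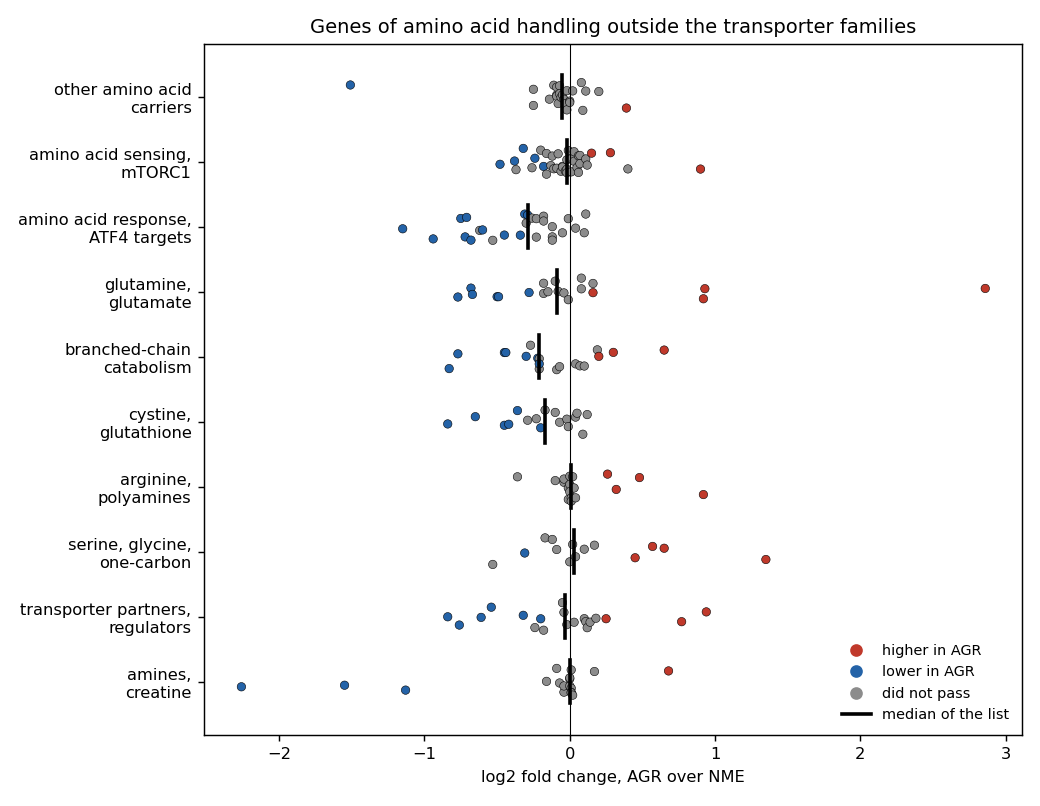
Log2 FC of AGR over NME cells for each gene (points) of the 10 lists of amino acid handling outside the transporter families, with the median of each list as a black bar and colours for an adjusted p under 0.05 in limma. The list of the amino acid response and ATF4 targets has the lowest median, -0.29, and the points farthest from 0 are Abat at 2.86 and Ddc at -2.26.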

How the data were processed

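Each probe set had 1 deposited intensity per array, linear and already processed by the authors. The processing notes of the submitters name MAS5 with no version or settings, and this array has no mismatch probes for it, so the normalization is unknown. Their log2 was taken with no offset. Of 35557 probe sets, 21789 had 1 gene symbol, 1621 had several and 12147 had none, and only the first were tested. The brightest probe set stood for each of the 999 genes with more than 1. The lines were compared with limma 3.58.1 (lmFit and eBayes) in R 4.3.3, with Benjamini-Hochberg adjustment over 19938 genes and 95% intervals from the same fit. The number of arrays, the unknown normalization and the lack of detection calls limit the precision.

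The genes, lists, motifs and tests were chosen with earlier results of these data known. Every member of the families was named, with all 6 arrays for those past an adjusted p of 0.05 and a FC of 1.5 (and for others where an array is at issue), and each list by its 3 largest changed genes and any that went the other way. All 66 probe sets of the families matched RefSeq (GRCm38.p6) by gene ID. The build behind the array was not given in the sources used here, so RefSeq served for names, gene order (3 neighbours on each side) and promoters. The limma fit was run on simulated data with known changes of 1.5-fold or more and independent normal values. Smaller changes, or an array that stands apart as AGR replicate 2 does, were not simulated. Alternatives were 2 other scalings, 2 filters on dim genes, the mean of probe sets, an offset of 16 and eBayes with its trend and robust options. Further ones were the two-sided test of the methods, a replicate block and leaving out each array. The shares of all genes without AGR replicate 2, with centring and by brightness, and the list counts in every setting, were added after the data were seen. Replicate numbers were taken from the titles and were not used to pair arrays.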

Additional observations from a re-analysis of the deposited data

How the results depend on the processing

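Slc7a7, Slc6a8, Slc3a1 and Slc1a2 kept their direction and their call in every alternative that tested them (the filter at the median removed Slc3a1 and Slc1a2). Slc6a9 lost its call in 1 of 15 settings, Slc7a11 and Slc38a9 in 5, Slc36a1 in 6 and Slc38a2 in 7, and no gene reversed. The number of transporter genes higher in AGR cells was 5 with centring on the median and 5 with quantile normalization. Over all 19938 genes, centring called 2683 higher and 1916 lower and quantile normalization 2797 and 2445, beside 2515 and 2304 in the main fit. The number lower was 3 with the two-sided test of the methods, which called 4 higher and 10 lower before adjustment. After adjustment that test called 2 of the transporter genes higher, and 16.4% of all genes in both directions together. The number lower by over 2-fold was 1 with the filter at the median and 1 with an offset of 16. With the filter at the median the median log2 FC of the tested members was -0.15, because the dim members were left out. Leaving out 1 array gave 2 to 4 higher genes, 3 to 11 lower genes (3 without NME replicate 1 or NME replicate 3, 11 without AGR replicate 2), 1 to 2 genes lower by over 2-fold (1 without AGR replicate 3) and a median log2 FC of -0.07 to -0.04. Other causes were not tested. Deviations of arrays with the same replicate number correlated at -0.13, 0.33 and 0.26 for replicates 1, 2 and 3. Those of arrays with different numbers correlated at -0.47 to 0.36. These values do not settle whether the numbers pair the arrays, and the main fit did not use the numbers. With the replicate number as a block 4 genes were higher and 9 lower, 2 of them by over 2-fold, and the median log2 FC was -0.06. Shares of all genes are not given for the block, the filters, the offset and most fits without 1 array. Those counts describe the transporter genes only. Dim genes are limited by signal over background, which these files do not give.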
